A study of Mus musculus with 4 samples.

Results

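The genes described here are 7 genes known for their response to low oxygen, Ndrg1, Vegfa, Bnip3, Egln1, Egln3, P4ha1 and Pdk1, out of 16706 genes counted. They were looked up by symbol, and all 7 were found. The set was selected on the Ndrg1 level, which was higher with givinostat than with vehicle, so that level is given below as a description. The gene counts come from droplet single-cell RNA sequencing (10x Chromium) of whole kidneys from mice with crescentic glomerulonephritis, raised by a serum (anti-GBM) that binds the basement membrane of the glomerulus. From day 1 after the serum, the 4 groups received 15 mg/kg of panobinostat, 10 mg/kg of givinostat, 60 mg/kg of ruxolitinib or water as vehicle. Panobinostat and givinostat inhibit histone deacetylases, and ruxolitinib inhibits the Janus kinases JAK1 and JAK2.

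All animals, vehicle included, were male C57Bl/6 mice of 9 weeks with the alleles Pax2.rtTA;TetO.Cre;R26.Confetti, a reporter in which doxycycline lets the Pax2 promoter switch on Cre, and all received the anti-GBM serum and were sacrificed on day 7. The labels give 2 animals per group and do not say whether both are in the library. No group without serum is analysed here, so every value is from a diseased kidney. Each group is 1 library. A difference is therefore one between libraries, no test was made, and each 95% interval covers counting error only. The library taken as vehicle is the one named as control, since no drug matches its name.

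Cells take low oxygen into account through the hypoxia-inducible factors (HIF). Prolyl hydroxylases, among them the products of Egln1 and Egln3, use oxygen to mark the HIF alpha subunits for destruction. When oxygen is scarce the alpha subunits persist, pair with ARNT and bind short DNA motifs near target genes. In the kidney the outer medulla works at low oxygen even in health, and HIF targets also answer to other signals, so that a change in 1 target does not by itself measure oxygen.

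Promoters of 3 members are shown because their products stand at different steps of the response and because their levels went different ways. Each is the 250 bases before the annotated start in RefSeq, build GRCm38.p6, read 5′ to 3′ along the gene. Capitals mark the core HIF motifs ACGTG and GCGTG on either strand. Vegfa is at chr17:46032378-46032627 on the minus strand, Bnip3 at chr7:138909507-138909756 on the minus strand and P4ha1 at chr10:59323046-59323295 on the plus strand.
Vegfa: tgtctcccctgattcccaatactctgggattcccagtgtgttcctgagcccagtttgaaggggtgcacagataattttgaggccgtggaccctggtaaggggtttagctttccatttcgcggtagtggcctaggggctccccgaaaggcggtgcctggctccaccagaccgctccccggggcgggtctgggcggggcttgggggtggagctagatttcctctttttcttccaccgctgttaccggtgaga
Bnip3: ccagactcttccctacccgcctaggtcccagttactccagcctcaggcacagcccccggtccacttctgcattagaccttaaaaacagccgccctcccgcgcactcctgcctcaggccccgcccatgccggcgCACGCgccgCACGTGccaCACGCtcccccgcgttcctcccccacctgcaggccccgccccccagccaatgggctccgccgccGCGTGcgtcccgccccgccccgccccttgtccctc
P4ha1: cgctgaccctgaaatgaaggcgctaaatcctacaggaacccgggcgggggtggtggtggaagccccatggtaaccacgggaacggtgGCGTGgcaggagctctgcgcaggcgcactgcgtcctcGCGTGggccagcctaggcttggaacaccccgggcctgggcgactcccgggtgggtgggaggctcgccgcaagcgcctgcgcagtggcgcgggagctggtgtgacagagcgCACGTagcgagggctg
The Vegfa window held neither motif. Bases outside the 250 were not searched, so a window without a match does not mean that the gene lacks the motif. The Bnip3 window held ACGTG 2 times, both within the palindrome CACGTG, and GCGTG 3 times, and the P4ha1 window held ACGTG 1 time and GCGTG 2 times. Of 27025 promoters of this length, 38.6% held at least 1 of the motifs, 16.6% ACGTG and 28.2% GCGTG. A match is a string of letters and not a bound site, and 6 of the 7 members had a promoter in the table.

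The libraries held 3472 to 4396 cells after filtering and 36861583 to 45075309 UMIs (unique molecular identifiers, each one captured transcript). Cells were grouped into 30 clusters and named from marker genes, and 8 classes had at least 50 cells in every library. Proximal tubule-like cells were the most numerous, with 2465 in the panobinostat, 1160 in the givinostat, 1686 in the ruxolitinib and 1740 in the vehicle library. No proximal tubule marker of the 8 used was at 0 in them, while the podocyte markers summed to 1.91, 1.84, 2.01 and 1.52 CPM (UMIs per 1000000 UMIs of the sum) in the same order. Podocytes, the glomerular cells best known for Vegfa, formed no class. Of 15983 barcodes, 20 occurred in more than 1 library. The libraries also fall into pairs in genes with no role in this pathway. Tpm3-rs7 had 16.5 CPM with givinostat and 23.5 with ruxolitinib in proximal tubule-like cells, against 1.91 with panobinostat and 1.67 with vehicle, while Gm10036 had 2.84, 3.98, 15.4 and 15.2 CPM in those same libraries.

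Ndrg1 encodes a cytoplasmic stress-response protein of the NDRG family. In proximal tubule-like cells its level was 1181 CPM with panobinostat, 1419 with givinostat and 1161 with ruxolitinib, against 861 CPM with vehicle. Every drug library was above the vehicle library and givinostat was the highest. The ratio to vehicle was 1.37 with panobinostat (95% interval 1.35 to 1.40), 1.65 with givinostat (1.62 to 1.68) and 1.35 with ruxolitinib (1.32 to 1.37). All 3 ratios share the vehicle library, so a low vehicle value would raise them together. Without that library, givinostat was 1.22 times ruxolitinib (1.20 to 1.24) and panobinostat 1.02 times ruxolitinib (1.00 to 1.04). The compounds were given at different doses, so their values stand side by side and do not rank them.

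**Figure D1:**
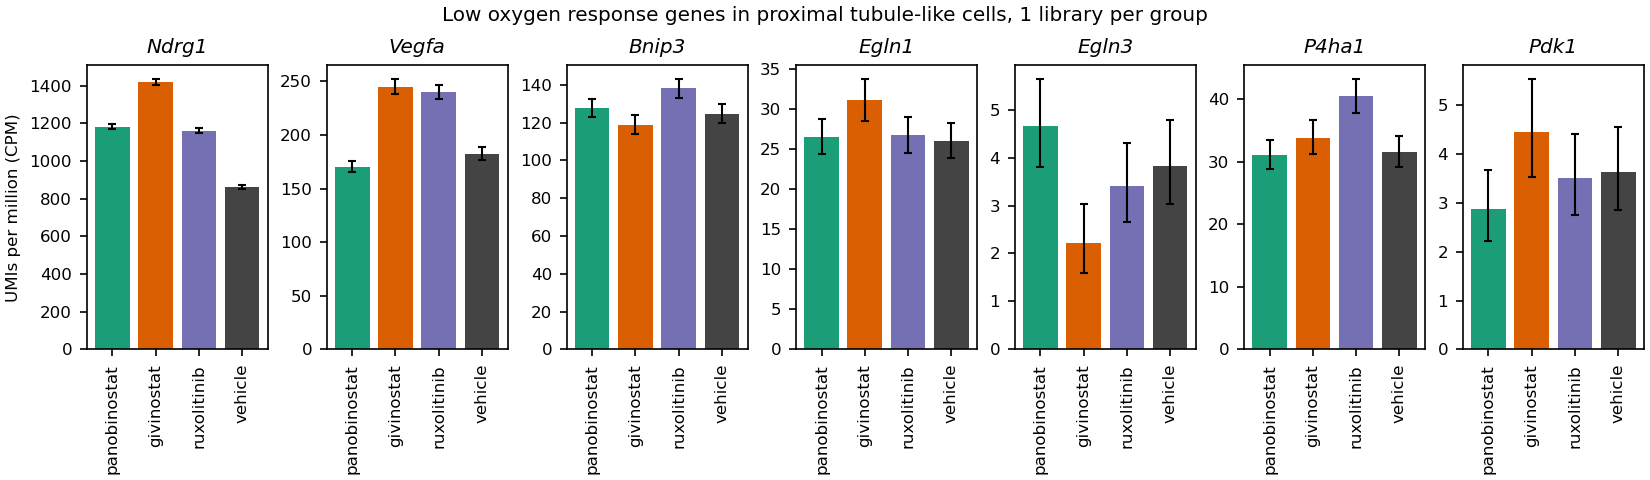
Level of each of the 7 genes in proximal tubule-like cells, in CPM on a linear axis from 0, for the panobinostat, givinostat, ruxolitinib and vehicle libraries. Bars are summed UMIs of 1 library and whiskers exact 95% Poisson intervals. Ndrg1 is at 1181, 1419 and 1161 CPM in the drug libraries against 861 CPM with vehicle, while Egln3 and Pdk1 stay under 6 CPM in all 4.

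Because the set was selected on the Ndrg1 level with givinostat, the rank of its givinostat ratio is also a description. Genes with at least 10 CPM in one of the 2 libraries were ranked by their ratio, with 5 CPM added to each level. As high as Ndrg1 or higher, itself included, were 54 of 7755 with panobinostat, 21 of 7886 with givinostat and 291 of 7961 with ruxolitinib. Of the 5 members measured at 10 CPM in these cells, Ndrg1 alone was past 1.5-fold higher, and with givinostat alone. The share of all genes past that fold was 1.38% with givinostat, 0.606% with panobinostat and 2.36% with ruxolitinib. No member was past 1.5-fold lower, where the shares of all genes were 1.1% with givinostat, 1.43% with panobinostat and 0.892% with ruxolitinib.

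The Ndrg1 level can also be given as the share of cells with the transcript. That share recounts the UMIs the set was selected on, so it too is a description. With every cell thinned to 2900 UMIs, 83.0% of proximal tubule-like cells had an Ndrg1 UMI with panobinostat, 85.7% with givinostat and 80.8% with ruxolitinib, against 74.3% with vehicle. Without thinning the shares were 93.1%, 98.2%, 94.9% and 92.5%, at median depths of 7666, 12814, 10379 and 9780 UMIs. The thinned median was 2, 3 and 2 UMIs per cell in those drug libraries and 1 with vehicle. In T-like cells, where Ndrg1 lay near the level that leaked tubule RNA would give, the thinned shares were 11.8%, 11.7%, 12.5% and 7.76%, at median depths of 4188, 7359, 5276 and 4724 UMIs.

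**Figure D2:**
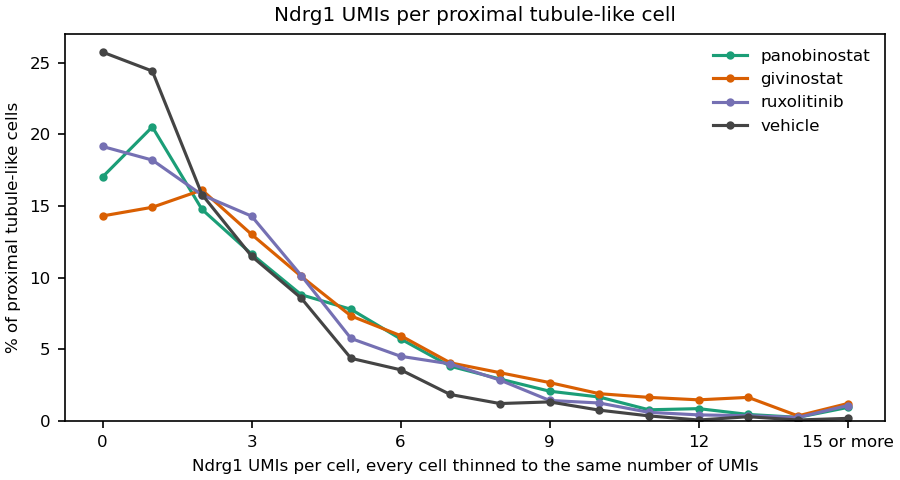
Share of proximal tubule-like cells, in percent, at each number of Ndrg1 UMIs after every cell was thinned to 2900 UMIs; points are libraries and the last position pools cells with 15 or more. The vehicle curve lies highest at 0, where it holds 25.7% of its cells against 17.0% with panobinostat, 14.3% with givinostat and 19.2% with ruxolitinib.

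Ndrg1 was above vehicle in all 7 proximal tubule-like clusters under each drug, and in all 7 givinostat was highest and vehicle lowest. The cluster ratios ran from 1.27 to 1.85 with panobinostat, from 1.66 to 2.34 with givinostat and from 1.23 to 1.37 with ruxolitinib. The clusters themselves differed widely in level. The lowest was led by Kap and Slco1a1, with 503 CPM for panobinostat, 611 for givinostat, 397 for ruxolitinib and 322 for vehicle. The highest was led by Acot2 and Cyr61, with 1785, 2334, 1822 and 1403 CPM in the same order. Clusters were made from all genes, these included, so the differences between clusters are a description. The clusters are also parts of the same libraries, so cluster counts, for this member or another, are not counts of replicates. No share of all genes is given beside them.

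Vegfa encodes the vascular endothelial growth factor that tubule cells and podocytes supply to the capillaries beside them. In proximal tubule-like cells it stood at 170 CPM with panobinostat, 245 with givinostat and 240 with ruxolitinib, against 183 CPM with vehicle. Givinostat and ruxolitinib were high, and panobinostat and vehicle low. The ratio to vehicle was 0.934 with panobinostat (0.893 to 0.978), 1.34 with givinostat (1.28 to 1.40) and 1.31 with ruxolitinib (1.26 to 1.37). With 5 CPM added to each level, a ratio as high was held by 2.51% of all genes measured with givinostat and by 5.84% with ruxolitinib.

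The Vegfa order divides the libraries as Tpm3-rs7 does. Of 8091 genes measured in proximal tubule-like cells, 571 (7.06%) were at least 1.2-fold higher in both the givinostat and ruxolitinib libraries than in both others, Vegfa among them, and 86 (1.06%) were lower in the same way, a limit set after the values were seen. Erythroid markers summed to 112 CPM with panobinostat, 324 with givinostat and 510 with ruxolitinib, against 76.1 CPM with vehicle, in these cells. Whether this division has a part in the Vegfa difference was not tested.

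Givinostat and ruxolitinib exceeded panobinostat and vehicle for Vegfa in 7 of 7 proximal tubule-like clusters. The clusters fell into low and high ones. Those led by Kap, Ttr and Car3 held 32.6 to 37.5 CPM with panobinostat, 42.6 to 51.6 with givinostat, 41.7 to 49.1 with ruxolitinib and 28.9 to 35.1 with vehicle. Those led by Slc5a12, Pdk4, Gm45792 and Acot2 held 226 to 318, 284 to 393, 288 to 408 and 206 to 306 CPM. Slc5a12 and Slc5a2 mark the early proximal tubule, and Slc7a13, among the leading genes of the Kap cluster, its last segment. After thinning to 2900 UMIs, 29.2% of proximal tubule-like cells had a Vegfa UMI with panobinostat, 38.8% with givinostat, 39.1% with ruxolitinib and 31.8% with vehicle. Before thinning these were 51.3%, 67.7%, 66.8% and 60.5%. T-like cells, read beside them, had 4.14%, 4.63%, 4.49% and 5.82% after thinning.

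**Figure D3:**
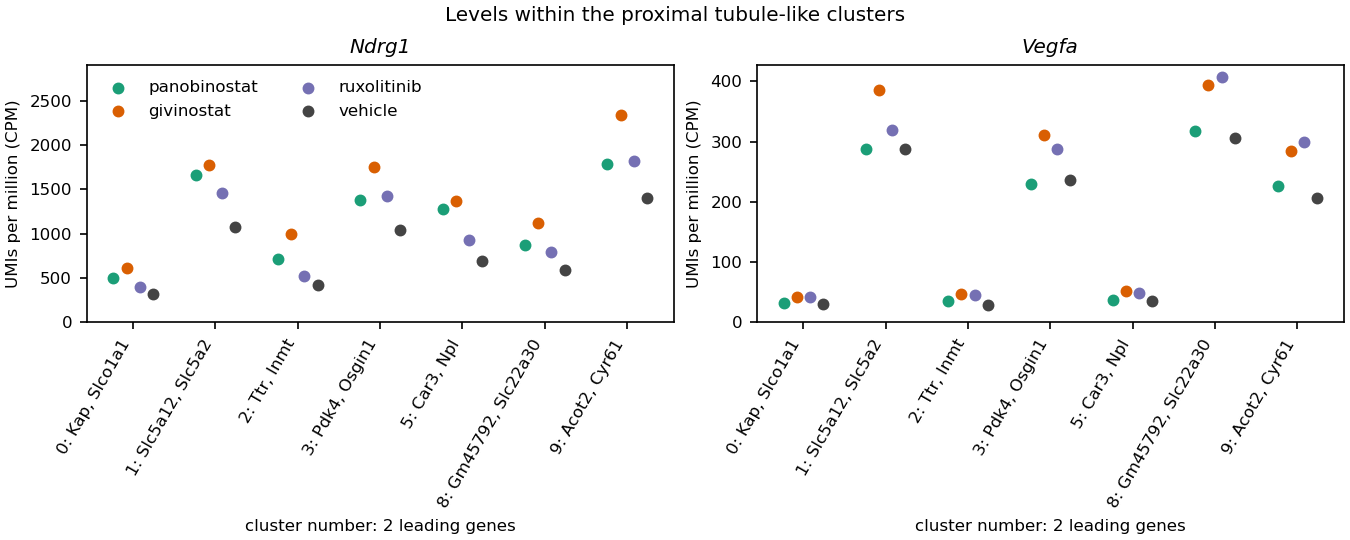
Ndrg1 (left) and Vegfa (right) in each of the 7 proximal tubule-like clusters, in CPM on linear axes from 0; each point is 1 library and each cluster is named by its 2 leading genes. For Ndrg1 the vehicle point is the lowest and the givinostat point the highest in every cluster, and for Vegfa the givinostat and ruxolitinib points lie above the other 2 in every cluster.

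The other members measured in proximal tubule-like cells, Bnip3, Egln1 and P4ha1, were within 1.5-fold of vehicle under each drug. Bnip3, a mitochondrial outer membrane protein that directs mitochondria to autophagy, had 128 CPM with panobinostat, 119 with givinostat, 138 with ruxolitinib and 125 with vehicle. Its ratios to vehicle were 1.02 (0.970 to 1.08), 0.952 (0.898 to 1.01) and 1.11 (1.05 to 1.17), and the interval left out 1 with ruxolitinib. A ruxolitinib ratio as high, with 5 CPM added to each level, was held by 39.3% of genes measured. Under the other processing choices listed below, the Bnip3 ruxolitinib ratio ran from 1.015 to 1.132. Bnip3 was above vehicle in 2 of 7 clusters with panobinostat, 3 with givinostat and 5 with ruxolitinib.

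Egln1 encodes PHD2, the main oxygen sensor that marks HIF for destruction. It had 26.5 CPM with panobinostat, 31.1 with givinostat and 26.7 with ruxolitinib, against 26.0 CPM with vehicle. Only the givinostat ratio, 1.20 (1.06 to 1.35), had an interval that left out 1, and 6 of 7 clusters were above vehicle with givinostat. A givinostat ratio as high, with 5 CPM added to each level, was held by 19.1% of genes measured. Under the other processing choices listed below, the Egln1 givinostat ratio ran from 1.12 to 1.27. P4ha1 encodes a catalytic subunit of the prolyl hydroxylase that stabilises collagen. Its level was 31.1, 33.9, 40.4 and 31.6 CPM in the panobinostat, givinostat, ruxolitinib and vehicle libraries. The ruxolitinib library was highest, at 1.28 times vehicle (1.15 to 1.42) and above it in 6 of 7 clusters. With 5 CPM added to each level, 11.6% of genes measured had a ratio as high. In proximal tubule-like cells Egln1 and P4ha1, like Vegfa, were higher in both the givinostat and ruxolitinib libraries than in both others. The clusters counted here are parts of 1 library per group and not replicates.

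Egln3, which encodes the HIF-induced prolyl hydroxylase PHD3, and Pdk1, which encodes a kinase that inhibits pyruvate dehydrogenase, were near the floor in proximal tubule-like cells. Egln3 had 4.66, 2.23, 3.41 and 3.83 CPM with panobinostat, givinostat, ruxolitinib and vehicle, from 105, 40, 71 and 78 UMIs. Pdk1 had 2.89, 4.45, 3.50 and 3.64 CPM from 65, 80, 73 and 74 UMIs. Both were under 10 CPM in every library and were not counted as measured there. The givinostat ratio of Egln3 was 0.581 (0.387 to 0.861), and the interval of every Pdk1 ratio to vehicle held 1.

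Other genes of the pathway were read in the same cells from 7 lists of 60 genes, of which 58 were in the table and 40 were measured at 10 CPM. None of the 40 was past 1.5-fold higher with any drug, and 6 were past 1.5-fold lower with panobinostat, 5 with givinostat and 3 with ruxolitinib. Of all genes measured, 0.606%, 1.38% and 2.36% were past it higher and 1.43%, 1.1% and 0.892% lower with panobinostat, givinostat and ruxolitinib. The median log2 ratio over the 40, with 5 CPM added to each level, was -0.00 with panobinostat, -0.15 with givinostat and -0.02 with ruxolitinib, beside 0.01, 0.06 and 0.09 over all genes measured. At the shares of all genes past 1.5-fold higher, fewer than 1 of 40 would be past it, so the count of 0 is near that background and is not read as a result. Among the genes counted lower, Pfkfb3 with panobinostat and givinostat and Adm with ruxolitinib reached 10 CPM in the vehicle library alone.

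In the HIF machinery, 0 of 6 measured genes were past 1.5-fold with panobinostat or ruxolitinib, and 1 was with givinostat. That gene was Cited2, which competes with HIF for its coactivator, with 190 CPM in panobinostat, 137 in givinostat, 158 in ruxolitinib and 208 in vehicle. Hif1a, an oxygen-regulated alpha subunit, had 43.9, 55.3, 48.9 and 46.6 CPM. Egln2, the third prolyl hydroxylase, had 46.2, 37.6, 38.9 and 42.6 CPM.

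Over 11 measured genes of glucose entry and glycolysis, the median log2 ratio was 0.13 with panobinostat, -0.20 with givinostat and -0.04 with ruxolitinib. Over all genes measured it was 0.01, 0.06 and 0.09, with 5 CPM added to each level in both. Gapdh had 1752 CPM with panobinostat, 1392 with givinostat, 1541 with ruxolitinib and 1580 with vehicle. The glycolytic enzyme gene Tpi1 had 687, 546, 600 and 628 CPM, and Ldha, which turns pyruvate into lactate, had 592, 503, 498 and 504 CPM. Pfkfb3, which makes an activator of glycolysis, was the sole gene of the list past 1.5-fold, lower with panobinostat and givinostat: it had 5.50 CPM with panobinostat, 5.85 with givinostat and 8.16 with ruxolitinib, against 11.6 CPM with vehicle.

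Pdk4, a relative of Pdk1 that fasting and fatty acids raise, had 216 CPM with panobinostat, 303 with givinostat and 203 with ruxolitinib, against 338 CPM with vehicle. Its ratios were 0.639 (0.616 to 0.663), 0.895 (0.864 to 0.928) and 0.600 (0.578 to 0.624). The other measured relatives were less far apart: Pdk2 had 62.9, 60.0, 55.1 and 57.1 CPM, and Pdk3 had 32.6, 23.0, 24.0 and 29.3 CPM.

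Of 5 measured genes of blood vessels and blood, Adm and Angptl4 were past 1.5-fold lower. Adm, the vessel-widening peptide adrenomedullin, had 13.2 CPM with panobinostat, 11.1 with givinostat and 6.86 with ruxolitinib, against 21.7 CPM with vehicle, and was past that fold under each drug. Angptl4, a lipoprotein lipase inhibitor, had 129, 212, 131 and 267 CPM in that order and was past it with panobinostat and ruxolitinib. Hmox1, the haem oxygenase gene, had 46.6, 45.4, 53.3 and 46.7 CPM, and Nrp1, a VEGF co-receptor gene, 38.8, 33.2, 46.3 and 40.5 CPM.

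None of the 3 measured collagen hydroxylase genes was past 1.5-fold. Plod2 had 30.5 CPM with panobinostat, 26.8 with givinostat, 25.3 with ruxolitinib and 24.5 with vehicle, and P4ha2 had 17.8, 18.4, 22.3 and 16.1 CPM. Plod1, like Plod2 a lysyl hydroxylase gene, had 8.92, 9.24, 10.2 and 10.1 CPM.

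In the stress list of 9 measured genes, Bhlhe40, a transcriptional repressor, had 103 CPM with panobinostat, 133 with givinostat and 162 with ruxolitinib, against 192 CPM with vehicle, and was past 1.5-fold lower with panobinostat. Ddit4, an inhibitor of mTORC1, was past it with givinostat, with 15.1, 10.1, 13.6 and 15.6 CPM in those libraries. Car12, a carbonic anhydrase, had 137, 191, 162 and 139 CPM, and Higd1a, a mitochondrial protein, had 116, 99.0, 113 and 117 CPM.

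Sgk1, a kinase that phosphorylates NDRG1, had 123 CPM with panobinostat, 213 with givinostat and 302 with ruxolitinib, against 324 CPM with vehicle. The ratios were 0.380 (0.363 to 0.397), 0.658 (0.632 to 0.684) and 0.933 (0.901 to 0.966). Sgk1 was thus lower under both histone deacetylase inhibitors where Ndrg1 was higher. The paralogues Ndrg3 (35.7, 36.7, 40.9 and 36.6 CPM) and Ndrg2 (41.4, 30.1, 32.8 and 38.5 CPM) were within 1.5-fold of vehicle under each drug.

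Several of these lower genes lead 1 proximal tubule-like cluster, the one led by Pdk4, Osgin1 and Angptl4. It held 10.8% of proximal tubule-like cells with panobinostat, 14.7% with givinostat and 12.2% with ruxolitinib, against 20.2% with vehicle. With cluster levels averaged by the vehicle library's cell shares in all 4 libraries, vehicle included, a calculation added after the values were seen, 3 of the 40 genes were past 1.5-fold lower with panobinostat (Pfkfb3, Angptl4 and Sgk1), 2 with givinostat (Pfkfb3 and Adm) and 2 with ruxolitinib (Adm and Angptl4). Pfkfb3 was then under 10 CPM in every library, at 8.52 CPM with vehicle, and without it the counts were 2, 1 and 2. The Sgk1 ratios were then 0.494, 0.782 and 1.13, those of Pdk4 0.910, 1.10 and 0.805, and those of Adm 0.707, 0.532 and 0.340. The clusters were made from the same counts, so this weighting can draw the ratios of a cluster's leading genes, such as Pdk4 and Angptl4, towards 1 by construction. Whether cell shares have a part in these differences was not tested. The Ndrg1 ratios, already above 1, moved further from 1 under that weighting, to 1.48 with panobinostat and 1.78 with givinostat. With ruxolitinib the Ndrg1 ratio stayed between 1.24 and 1.36 over all recalculations.

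**Figure D4:**
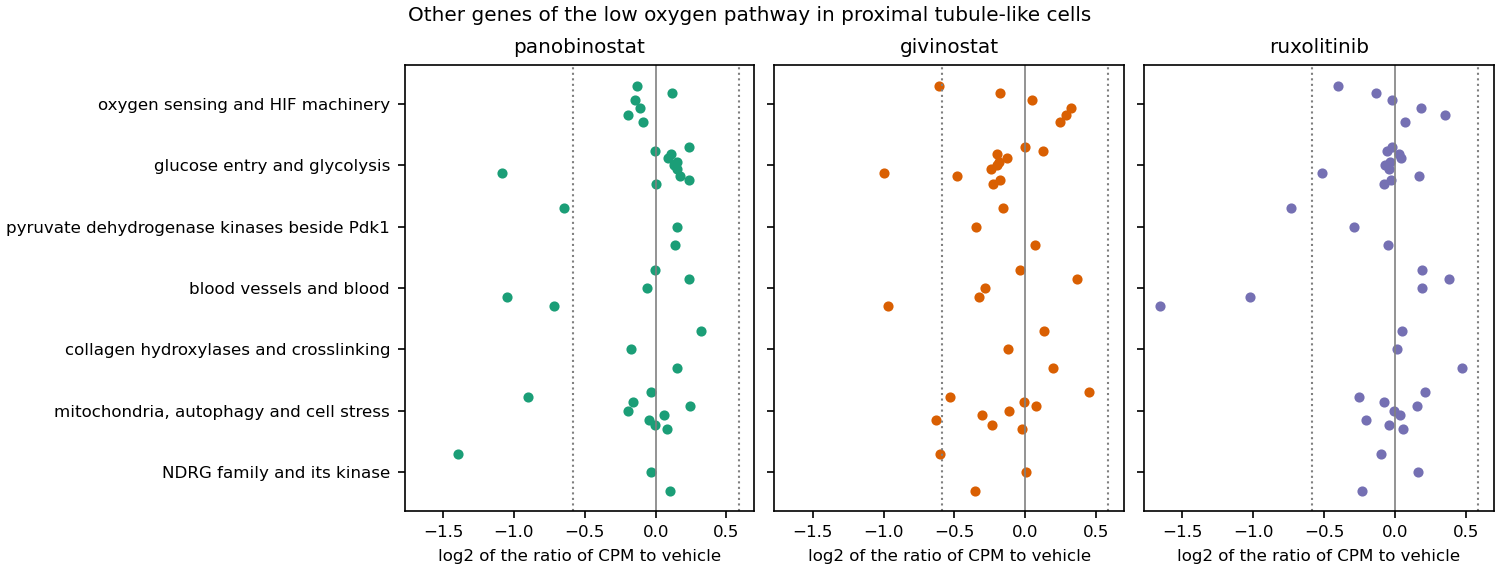
Log2 ratio of CPM to vehicle in proximal tubule-like cells for the measured genes of 7 lists of the low oxygen pathway, with 1 panel each for panobinostat, givinostat and ruxolitinib. Each point is 1 gene, the solid line marks no difference and the dotted lines 1.5-fold. No point lies past the upper dotted line, and 6, 5 and 3 lie past the lower one.

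Outside the proximal tubule-like cells, Ndrg1 has to be read beside RNA that leaked from the tubule. Proximal tubule markers, which other cells should lack, were summed in each class as a percent of their level in proximal tubule-like cells. That percent of the tubule's Ndrg1 is the level that leaked RNA would give if Ndrg1 leaked in proportion to the markers, which was not tested. In T-like cells Ndrg1 was at 54.8 CPM with panobinostat, 48.7 with givinostat and 44.3 with ruxolitinib, against 30.9 CPM with vehicle, and leaked RNA would give 66.3, 52.4, 35.2 and 31.7 CPM. Those values are at or near background, although the panobinostat and givinostat ratios were past 1.5-fold. The shares of all genes past 1.5-fold higher in T-like cells were 4.62% with panobinostat, 4.84% with givinostat and 4.33% with ruxolitinib.

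In dendritic-like and macrophage-like cells, every drug library had both a higher Ndrg1 level and a higher leaked level than vehicle. Dendritic-like cells had 329 CPM with panobinostat, 104 with givinostat and 214 with ruxolitinib, against 92.8 CPM with vehicle, where leaked RNA would give 232, 70.7, 136 and 52.5 CPM. Macrophage-like cells had 213, 179, 179 and 86.8 CPM, where it would give 168, 140, 107 and 67.8 CPM. All 3 macrophage ratios were past 1.5-fold (2.45, 2.06 and 2.06), where 11.5%, 10.5% and 10.4% of all genes were, and the part of the leaked RNA in them was not tested. Monocyte-like cells had 193, 203, 170 and 185 CPM, where leaked RNA would give 158, 137, 105 and 105 CPM. The panobinostat library had the highest leaked level there and the givinostat library the highest Ndrg1, and the part of the leaked RNA was not tested.

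The distal nephron classes had Ndrg1 levels above what leaked RNA would give in every library. Loop of Henle-like cells had 419 CPM with panobinostat, 286 with givinostat and 222 with ruxolitinib, against 235 CPM with vehicle, where leaked RNA would give 138, 35.2, 40.8 and 66.7 CPM. The ratios to vehicle were 1.78 (1.59 to 2.00), 1.22 and 0.946, and 7.61% of all genes were past 1.5-fold higher with panobinostat. Principal or connecting tubule-like cells, whose cluster also holds the distal convoluted marker Slc12a3, had 629, 406, 437 and 518 CPM, where leaked RNA would give 172, 52.9, 119 and 63.2 CPM. Givinostat was the highest library in the proximal tubule and the lowest here, at 0.783 times vehicle.

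**Figure D5:**
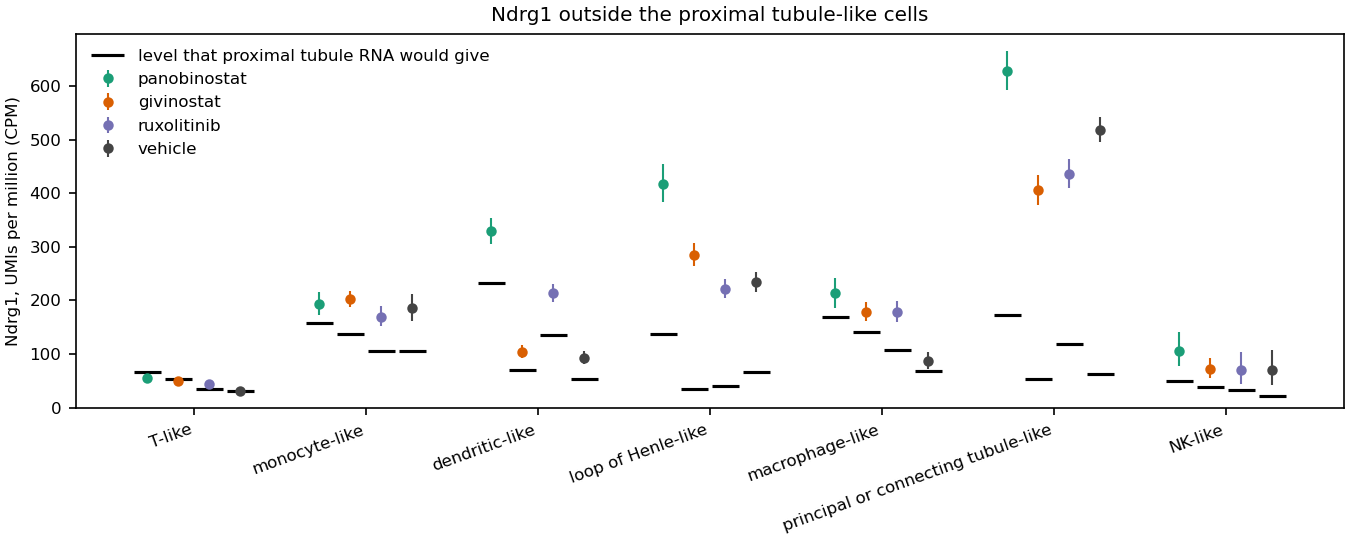
Ndrg1 in CPM, on a linear axis from 0, in the 7 classes other than proximal tubule-like, for the panobinostat, givinostat, ruxolitinib and vehicle libraries. Points are summed UMIs of 1 library with exact 95% Poisson intervals, and black dashes mark the level that leaked proximal tubule RNA would give. The points lie on or near the dashes in T-like cells and well above them in loop of Henle-like and principal or connecting tubule-like cells.

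Vegfa had a second high class among the immune cells. NK-like cells had 268 CPM with panobinostat, 233 with givinostat and 232 with ruxolitinib, against 281 CPM with vehicle, from 119, 185, 80 and 77 UMIs, where leaked RNA would give 4.44 to 7.19 CPM. After thinning, 40.2%, 43.8%, 35.4% and 38.2% of NK-like cells had a Vegfa UMI, and 50.5%, 56.3%, 50.8% and 54.5% before it. T-like cells, sampled alongside, had 17.9, 28.5, 18.3 and 26.7 CPM. The intervals of all 3 NK ratios to vehicle held 1. Loop of Henle-like cells had 177, 171, 187 and 147 CPM and principal or connecting tubule-like cells 137, 168, 171 and 126 CPM of Vegfa. Givinostat and ruxolitinib were above both other libraries for Vegfa in 4 of 8 classes.

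Egln3 reached 10 CPM in T-like cells alone of the 8 classes. It had 4.72 CPM with panobinostat, 11.8 with givinostat and 8.86 with ruxolitinib, against 14.3 CPM with vehicle, from 10, 79, 31 and 58 UMIs. The panobinostat ratio was 0.329 (0.150 to 0.649) and the ruxolitinib ratio 0.618 (0.386 to 0.971). In those comparisons 5.14% and 2.55% of all genes were past 1.5-fold lower. With givinostat 1.5% were and Egln3 was not. With panobinostat and ruxolitinib, Egln3 counted as measured through the vehicle library alone, and a gene measured that way can only lie lower with the drug. The T-like clusters were not equally filled. Within them, the cluster led by Il17a and Trdc had 8.67, 20.3, 21.3 and 42.0 CPM of Egln3 and made up 6.10%, 13.7%, 15.3% and 15.1% of T-like cells. The cluster led by Ctla4 and Tnfrsf4 had 11.4, 18.5, 14.6 and 17.8 CPM and made up 22.4%, 36.2%, 25.1% and 34.7%. The panobinostat library was lowest in share and in level in both, from 1 and 5 UMIs.

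Of the 8 classes, Pdk1 had its highest levels in the distal nephron. Principal or connecting tubule-like cells had 51.5 CPM with panobinostat, 75.8 with givinostat and 72.8 with ruxolitinib, against 66.4 CPM with vehicle. Loop of Henle-like cells had 41.7, 68.3, 69.2 and 68.0 CPM, and the panobinostat library stood apart at 0.613 times vehicle (0.444 to 0.835), where 4.73% of all genes were past 1.5-fold lower. In T-like cells Pdk1 had 38.2, 30.8, 30.3 and 27.7 CPM, and the cluster led by Lef1 and Ccr7 held the most, with 72.4, 65.5, 66.7 and 51.2 CPM.

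Bnip3 was even across the loop of Henle-like cells, with 91.1 CPM for panobinostat, 91.5 for givinostat, 91.6 for ruxolitinib and 93.8 for vehicle. Egln1 lay between 14.0 and 46.1 CPM and P4ha1 between 14.0 and 52.2 CPM over all 8 classes and 4 libraries. P4ha1 was highest in monocyte-like cells, with 52.2, 49.9, 51.4 and 51.4 CPM, and those 4 libraries did not differ beyond counting error.

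Across the 32 sums of 8 classes and 4 libraries, the genes whose log2 level ran most like Ndrg1 were Chpt1 (Pearson r 0.959), Selenbp1 (0.954), Hist1h2bc (0.948), Csrp2 (0.947) and 4833439L19Rik (0.946), out of 6347 genes. The sums share libraries and leaked tubule RNA, and the likeness is mostly between classes. In proximal tubule-like cells the same 5 genes had givinostat ratios to vehicle of 1.09, 0.893, 0.913, 0.965 and 1.24, where Ndrg1 had 1.65. Among the members, r with Ndrg1 was 0.916 for Bnip3 and 0.535 for Vegfa, and between -0.289 and 0.0148 for the other 4.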

How the data were processed

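The deposited matrix holds raw UMI counts per gene and cell, made with Cell Ranger 3.0.1 on build mm10 per the submitters' processing notes; deposited counts carry no normalization. The members and lists were chosen with earlier results of these data known. Named genes are the members, the 5 most like Ndrg1, and in each pathway list the 3 with the highest mean CPM in proximal tubule-like cells plus any past 1.5-fold.

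Of 16003 cells, 15777 with at least 200 genes, 500 UMIs and under 50% mitochondrial UMIs were kept. Leiden clustering (scanpy 1.11.5, leidenalg 0.10.2) at resolution 1 used 2000 variable genes, 30 principal components and 15 neighbours, without integration. A cluster was named X-like from at least 3 markers and a lead over the next class, and 4 stayed unnamed, by limits set with the data in view. Scrublet called 0.0682%, 2.30%, 0.302% and 0.0254% of panobinostat, givinostat, ruxolitinib and vehicle cells, which in 3 libraries is too few to work, so doublets were left in. UMIs were summed per class and library and given as CPM. A gene was measured at 10 CPM in either library, and 1.5-fold was a descriptive limit. Ratios carry exact conditional binomial, levels exact Poisson 95% intervals. The code for the ratio intervals was checked on simulated Poisson counts, the model they assume. That check holds no variation between cells, animals or libraries. Likeness used log2(CPM + 5) for genes with at least 50 CPM in 1 sum. Alternatives were TMM totals (edgeR 4.0.16), DESeq2 1.42.0 size factors, totals without mitochondrial genes, a stricter cell filter (500 genes, 1000 UMIs, 20% mitochondrial), a common UMI floor of 5272, resolutions 0.5 and 1.5, the top 5% doublet scores left out, the vehicle cluster mix, means over cells, and list filters of none or 50 CPM.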

Additional observations from a re-analysis of the deposited data

Results flagged for a closer look

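In 4 cases a ratio to vehicle lay on opposite sides of 1 in a pair of cell classes, with 1 library per group; the difference between the classes was not tested in any of them. Ndrg1 with givinostat was 2.06 times vehicle in macrophage-like cells and 0.783 times vehicle in principal or connecting tubule-like cells. In the macrophage-like cells proximal tubule markers stood at 9.90% of their tubule level with givinostat and 7.88% with vehicle. Leaked RNA at those percents would give 140 and 67.8 CPM of Ndrg1, where 179 and 86.8 CPM were counted. The part of leaked RNA in that ratio was not tested. Vegfa with givinostat was 1.35 times vehicle in monocyte-like and 0.684 times in dendritic-like cells. Vegfa with ruxolitinib was 1.36 times vehicle in principal or connecting tubule-like and 0.685 times in T-like cells. Pdk1 with panobinostat was 1.38 times vehicle in T-like and 0.613 times in loop of Henle-like cells.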

How the results depend on the processing

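No paired analysis was possible because each group is 1 library with no replicate. Over 30 recalculated values, the Ndrg1 ratio in proximal tubule-like cells stayed on its side of 1 and of 1.5-fold for each drug, and 19 lay within the counting interval. With givinostat it was 1.55 with TMM totals (1.547) and with DESeq2 size factors (1.546), 1.58 with the stricter cell filter, 1.61 at the common UMI floor, 1.78 at the vehicle cluster mix and 1.70 as a mean over cells. With panobinostat it was 1.34 with the stricter filter, 1.48 at the cluster mix and 1.40 over cells, and with ruxolitinib 1.24 with TMM totals (1.236) and with DESeq2 size factors (1.244), which shift the median of all ruxolitinib genes by -0.12 on the log2 scale. Of 120 values for other members in those cells, 7 crossed 1, and of 496 values in other classes, 31 crossed 1 and 28 crossed 1.5-fold. The pathway counts were less stable. With no filter on low levels, 4, 3 and 3 genes were past 1.5-fold higher with panobinostat, givinostat and ruxolitinib, and 9, 9 and 7 past it lower; the stricter cell filter gave 1 higher with ruxolitinib, the 50 CPM filter 2 lower with givinostat, and the cluster mix 2 lower with panobinostat and 1 with givinostat, or 3 and 2 with Pfkfb3, which was under 10 CPM at that mix. Classes with as few as 55 cells in a library limit what can be read: a gene at 10 CPM in NK-like cells rests on fewer than 10 UMIs.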
